A study of Mus musculus with 6 samples.

Results

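Genes that still carried a RIKEN clone name from the 1700 series were compared between control and Mgat1 cKO testicular germ cells at 23 dpp. The members were all genes on the array whose symbol starts with 1700 and ends with Rik, which gave 419 of 23152 genes. Each gene value is the mean of the gene's probe sets on the log2 scale, taken over probe sets that carry 1 symbol. Control males were Mgat1[F/F] and Mgat1 cKO males were Mgat1[F/F]:Stra8-iCre, both on an FVB background. The floxed Mgat1 allele is shared by both groups, and the Stra8 promoter drives the iCre recombinase in spermatogonia. Without the Golgi enzyme MGAT1, a cell cannot convert its N-glycans to the complex type. Germ cells of 6 males per genotype were pooled, and 3 aliquots of each pool were hybridized to Mouse Gene 2.0 ST arrays. The spread between arrays of a genotype, and each p-value, therefore measures aliquots of a pool and not mice, and genotype and pool cannot be told apart. The 22 dpp arrays were not analysed here.

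The 1700 prefix marks cDNA clones of the RIKEN mouse collection that were made from adult testis, and a few other prefixes, such as those of 4921511C20Rik, 4930483K19Rik and 4933417A18Rik, mark further testis libraries of that collection. Genes first found in this way are often transcribed late in spermatogenesis, when spermatids build the acrosome and the flagellum and compact their chromatin. Many remain known only by the clone name, as short reading frames or as long non-coding RNAs. In haploid germ cells, transcription of many genes starts from a short promoter close to the start site. The transcription factor CREM, of a family that binds cAMP response elements, binds such promoters in spermatids. RFX factors bind the X-box of ciliary and testis genes.

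Gene types were taken from the RefSeq gene table on GRCm38.p6. Of the members, 165 were protein coding, 238 were long non-coding, 14 were pseudogenes and 2 were of another type or matched several entries. The clone name was a synonym of another current symbol for 102 members, whose current symbol is given in parentheses. A RefSeq window of 300 bases around a start site, 250 before it and 50 after it, was given for 333 members, 77 of them among those that rose in the comparison described next. With alternative starts these were 376 windows. The stretch just before the start site is printed here for 8 members that rose by more than 2-fold, because they share an 8-base word. They are the 8 with the largest rises among those with TGACATCA, or its reverse complement TGATGTCA, within 100 bases before the start. The word is a cAMP response element, TGACGTCA, with 1 base changed, and it is shown in capitals. Each sequence runs 5′ to 3′ on the strand of the gene and ends at the last base before the start site, with GRCm38.p6 coordinates.
1700009N14Rik, chr4:39450193-39450292, plus strand: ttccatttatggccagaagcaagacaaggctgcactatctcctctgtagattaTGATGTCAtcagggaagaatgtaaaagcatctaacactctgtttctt
1700006E09Rik (Cfap97d1), chr11:101986956-101987055, plus strand: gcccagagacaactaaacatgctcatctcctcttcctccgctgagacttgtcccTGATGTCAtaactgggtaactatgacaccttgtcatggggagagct
1700031L13Rik, chr5:82124714-82124813, minus strand: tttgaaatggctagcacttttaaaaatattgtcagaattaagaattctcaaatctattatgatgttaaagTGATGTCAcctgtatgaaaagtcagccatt
1700007K09Rik (Fam24b), chr7:131329500-131329599, minus strand: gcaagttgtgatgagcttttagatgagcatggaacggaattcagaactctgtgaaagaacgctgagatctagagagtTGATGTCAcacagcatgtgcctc
1700018L24Rik (Tex29), chr8:11840421-11840520, plus strand: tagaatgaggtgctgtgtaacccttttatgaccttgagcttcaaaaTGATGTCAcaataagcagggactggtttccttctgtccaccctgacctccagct
1700061G19Rik (Acsbg3), chr17:56875384-56875483, plus strand: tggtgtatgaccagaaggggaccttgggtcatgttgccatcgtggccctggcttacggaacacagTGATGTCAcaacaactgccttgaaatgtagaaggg
1700067P10Rik, chr17:48089542-48089641, plus strand: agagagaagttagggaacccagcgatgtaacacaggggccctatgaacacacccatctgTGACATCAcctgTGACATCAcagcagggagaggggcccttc
1700018C11Rik (Tex48), chr4:63622417-63622516, minus strand: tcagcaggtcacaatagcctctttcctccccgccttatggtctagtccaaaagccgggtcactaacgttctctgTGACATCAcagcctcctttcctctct

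In the promoter of 1700009N14Rik the word begins 47 bases before the start, and in Cfap97d1 46 bases before it. The same distance is 23 bases in Fam24b, 54 bases in Tex29 and 35 bases in Acsbg3. In 1700067P10Rik the word occurs 2 times, and the outer copy begins 41 bases before the start. These sequences were read before the word was searched for, so the shares given later are descriptions of a word picked from the members.

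Of the 419 members, 94 were higher in the mutant cells by more than 2-fold with an adjusted p under 0.05, which is 22.4% of them. Over all genes tested the same rule called 2.53% higher. No member was lower by that rule, beside 0.0346% of all genes, by limma and by the methods' analysis of variance alike. At an unadjusted p under 0.05, 19 members were lower, and 0 of these by more than 2-fold. A rise was thus more frequent among 1700 genes than over the array. In all 94 the arrays of the groups did not overlap. This was also so in 259 of the 419 members and in 7252 of all 23152 genes, so it adds little to the calls. All p-values of genes are from limma with Benjamini-Hochberg adjustment over all 23152 genes, and an exact permutation test of 3 arrays against 3 cannot give a p below 0.10. In RNA of mixed germ cells, a larger share of the cells that hold a transcript and more of it per cell cannot be told apart.

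Without a threshold on the fold, 181 members were higher (43.2%, beside 6.07% of all genes) and 2 were lower (0.477%, beside 2.35% of all genes). The other 236 passed in neither direction. The median difference of the members was 0.26 on the log2 scale, and that of all genes was -0.05. Differences of the members ran from -0.37 to 3.68. The distribution had a long upper tail, with 25 members over 2 and 6 over 3, while 265 lay between -0.5 and 0.5. Most of the set was thus close to level, and the rise was carried by a minority.

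**Figure D1:**
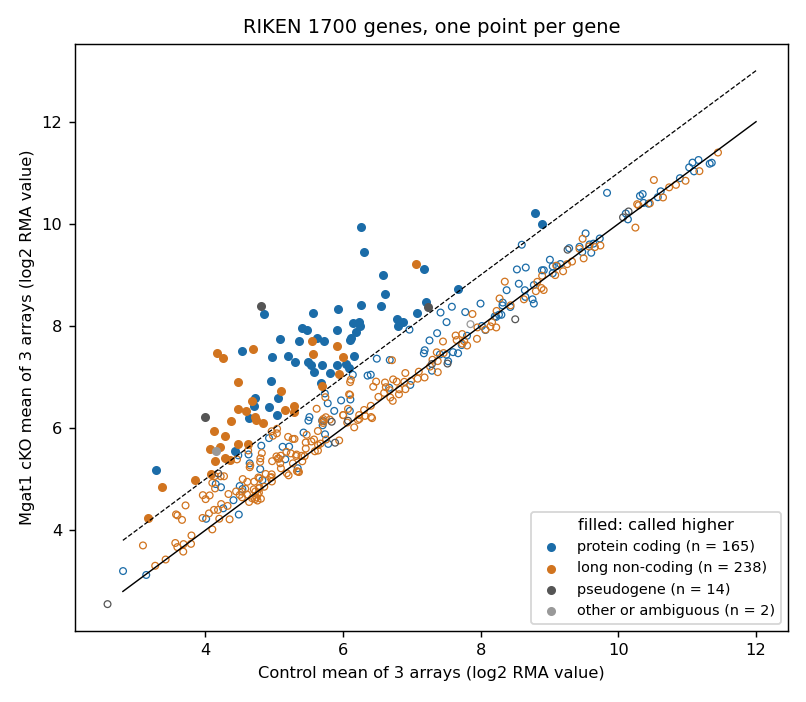
Mean log2 RMA value of 3 Mgat1 cKO arrays (vertical) against that of 3 control arrays (horizontal) for each of the 419 members, colored by gene type, with filled points for the 94 called higher. The solid line marks equal values and the dashed line a 2-fold rise; most filled points start from a low control value, and the points at the upper right lie along the solid line.

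The largest rise was that of 1700009N14Rik, a protein coding gene that keeps its clone name. Its control arrays read 6.28, 6.18 and 6.31, and its Mgat1 cKO arrays 9.96, 9.86 and 9.998. The difference of 3.68 (SE 0.07, adjusted p = 2.4e-07 from limma) is 12.8-fold, and the arrays of a group lay within a narrow band. All 4 of its probe sets rose, by 3.12 to 3.98. Next came 1700019M22Rik, annotated as a pseudogene, at 4.18, 4.94 and 5.29 in control and 8.45, 8.45 and 8.29 in Mgat1 cKO arrays (difference 3.59, SE 0.24, adjusted p = 2.8e-05). Its control arrays were spread over more than a log2 unit, the widest spread among the 12 largest rises. The protein coding 1700034E13Rik read 4.96, 4.76 and 4.83 in control and 8.30, 8.20 and 8.18 in Mgat1 cKO arrays, a difference of 3.38. Neither group overlapped the other in any of these genes.

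The long non-coding RNAs 1700020G17Rik, 1700031M16Rik and 1700031L13Rik were also among the 12 largest rises. For 1700020G17Rik the control arrays read 4.10, 4.30 and 4.11 and the Mgat1 cKO arrays 7.57, 7.39 and 7.42 (difference 3.29, SE 0.08). For 1700031M16Rik they read 4.32, 4.27 and 4.19 against 7.40, 7.36 and 7.36 (difference 3.12, SE 0.06), and 8 of its 9 probe sets were called. For 1700031L13Rik they read 4.58, 4.55 and 4.94 against 7.56, 7.48 and 7.61 (difference 2.86, SE 0.11). All of them started from low control values and rose on every array. The coding gene 1700029H14Rik, at 6.57, 6.17 and 6.16 in control and 9.40, 9.48 and 9.49 in Mgat1 cKO arrays, had all 13 probe sets called, so the whole of its measured transcript rose (difference 3.15, SE 0.11).

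Members that have since been named rose as well. Cfap97d1 (1700006E09Rik), a relative of the cilia and flagella associated protein CFAP97, read 4.59, 4.45 and 4.53 in control and 7.66, 7.54 and 7.29 in Mgat1 cKO arrays (difference 2.97, SE 0.10). Fam24b (1700007K09Rik) read 5.49, 5.58 and 5.60 against 8.28, 8.28 and 8.21 (difference 2.70, SE 0.06). Tex29 (1700018L24Rik), a testis expressed gene, read 4.998, 4.88 and 5.36 against 7.86, 7.76 and 7.60 (difference 2.67, SE 0.13). In all 3 genes the lowest Mgat1 cKO array was more than 2 log2 units above the highest control array. Efcab15 (1700023F06Rik), which encodes a protein with EF-hand calcium-binding domains, rose by 2.55 (SE 0.07), Prr30 (1700110M21Rik), a proline-rich protein, by 2.45 (SE 0.14), and Pttg1ip2 (1700015F17Rik) by 2.42 (SE 0.09). Acsbg3 (1700061G19Rik), of the acyl-CoA synthetase family, rose by 2.43 (SE 0.06), and 13 of its 18 probe sets were called. Llcfc1 (1700034O15Rik), also known as SOF1 and required in mouse sperm for fusion with the egg, read 6.50, 6.61 and 6.65 in control and 8.77, 9.05 and 9.14 in Mgat1 cKO arrays. Its difference was 2.40 (SE 0.10, adjusted p = 1.8e-06 from limma).

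**Figure D2:**
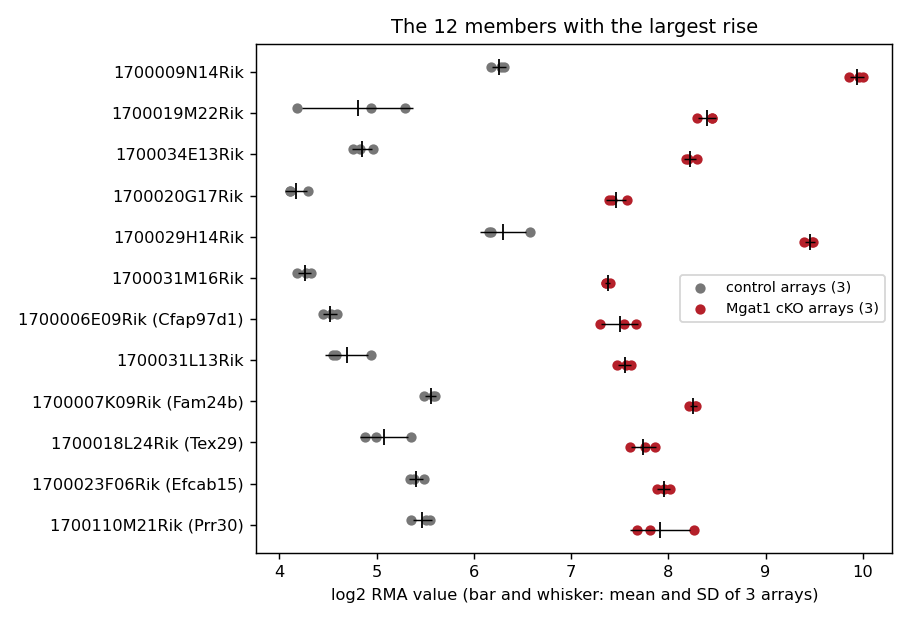
Log2 RMA values (horizontal) of the 12 members with the largest rise (vertical, current symbols in parentheses), with the 3 control arrays in gray and the 3 Mgat1 cKO arrays in red; bars and whiskers are means and SDs of 3 arrays. The groups do not overlap in any of the 12, and 1700019M22Rik has the widest control spread.

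The named members were further grouped by the start or end of their current symbol, a grouping chosen after the values were seen. For comparison, 43.2% of all members were higher at an adjusted p under 0.05 and 22.4% also by more than 2-fold. Over all genes these shares were 6.07% and 2.53%. Of 9 Tex genes, 8 were higher at an adjusted p under 0.05 and 5 of them by more than 2-fold, with a median difference of 1.70. These 5 were Tex29, Tex43 (2.21), Tex48 (2.15), Tex35 (2.01) and Tex33 (1.70). The exception was Tex30 (1700029F09Rik), at 9.05 in control and with a difference of -0.01. All 3 genes named Spat passed at 2-fold: Spatc1l (1.71), Spata45 (1.26) and Spata46, which lay between them. Of 7 Fam genes, 6 were higher and 5 by more than 2-fold, among them Fam217a (1.95) and Fam209 (1.84). Of 7 Cfap genes, whose products are associated with cilia and flagella, 4 were higher but only Cfap97d1 by more than 2-fold. That is 14.3% of them at 2-fold, below the 22.4% of all members. At any fold it is 57.1%, above the 43.2% of all members, and their median difference was 0.42, beside 0.26. Cfap126 differed by 0.80, Cfap157 by 0.58 and Cfap77 by 0.42, while Cfap206, Cfap299 and Cfap161 differed by -0.02 to 0.09 and did not pass. Of 6 Ccdc genes, 2 were higher (33.3%) and 1 by more than 2-fold (16.7%), with a median difference of 0.22. These shares were below those of all members.

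Among 4 members that encode testis variants of histones H2A and H2B, 3 were higher, none of them by 2-fold. H2ap (1700054O13Rik) read 5.05, 4.91 and 4.47 in control and 5.71, 5.70 and 5.55 in Mgat1 cKO arrays, a difference of 0.84 (SE 0.14). H2al1m differed by 0.67 and H2bl1 by 0.61, and H2bfm by 0.15 without passing the test. Of 14 members named as transcripts on the strand opposite another gene, 4 were higher (28.6%) and 3 by more than 2-fold (21.4%, beside 22.4% of all members), Ccdc34os (1.26), Tmem132cos (1.21) and Fam219aos (1.13). Their median difference was 0.05, beside 0.26 for all members, and 10 of the 14 passed in neither direction.

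By gene type, 55 of the 165 protein coding members were called higher (33.3%) and 35 of the 238 long non-coding members (14.7%). Over all genes the shares were 2.42% of protein coding and 3.91% of long non-coding genes. The medians were 0.49 and 0.18. Coding members that had been given a name (26 of 83, 31.3%) and those that kept the clone name (29 of 82, 35.4%) had like shares, and no difference between them was tested. On the X chromosome 3 of 17 members were called higher (17.6%), beside 6.32% of all X-linked genes, and on the autosomes 91 of 400 (22.8%). The 3 X-linked members were 1700003E24Rik (2.21), Tcp11x2 (1700008I05Rik, 2.14) and 1700010D01Rik (1.91).

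Most called members had low control values, and over all genes too the called share was smallest above 7. Of the 94 called members, 67 had a control mean under 6, beside a median control value of 5.92 over all members. In Mgat1 cKO cells, 24 of the called members reached a mean over 8. The control mean is itself a part of the difference. Among members with a control value under 5, 37 of 126 were called (29.4%, beside 3.3% of all genes in that range), and at 5 to 7 it was 49 of 156 (31.4%, beside 4.15%). Above 7 it was 8 of 137 (5.84%, beside 0.528%). In each range the share of members was above that of all genes, so the excess was not limited to low control values. Array values also depend on how well a probe binds, so they order genes by abundance only roughly. The 8 that rose from above 7 included 1700017J07Rik (from 7.06 to 9.22), Fam217a (from 7.17 to 9.12) and 1700001F09Rik (from 8.79 to 10.2).

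The members with the highest control values were level. The long non-coding RNA 1700028J19Rik read 11.46, 11.42 and 11.46 in control and 11.41, 11.42 and 11.37 in Mgat1 cKO arrays, a difference of -0.05 (SE 0.06). 1700006A11Rik, 1700102P08Rik and 1700042G15Rik differed by -0.16, -0.15 and -0.15, and Cfap206 (1700003M02Rik) and Cabcoco1 (1700040L02Rik) by 0.09 and -0.07. None of these 6 passed the test. Catsperz (1700019N12Rik), a subunit of the sperm calcium channel CatSper, read 10.90, 10.91 and 10.87 in control and 10.98, 10.85 and 10.85 in Mgat1 cKO arrays, which overlapped (difference 0.00, SE 0.06). Together with Tex30, 1700088E04Rik (0.01) and 1700052K11Rik (-0.02) it had the smallest differences among members with a control value of 8 or more.

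The 2 members that were lower were long non-coding RNAs. 1700110I01Rik read 10.28, 10.27 and 10.19 in control and 9.94, 9.93 and 9.90 in Mgat1 cKO arrays, and the difference was -0.32 (SE 0.06, adjusted p = 0.014). 1700016L04Rik read 7.33, 7.44 and 7.36 against 7.05, 7.07 and 7.17, a difference of -0.28 (SE 0.07, adjusted p = 0.038). The groups did not overlap in either gene, and both changes were under 1.5-fold. Without 1 control array the adjusted p of 1700110I01Rik was 0.067 (without replicate 1) or 0.062 (without replicate 2), and that of 1700016L04Rik passed only without Mgat1 cKO replicate 3. With the median of its probe sets in place of their mean, 1700016L04Rik was higher in Mgat1 cKO cells, by 0.25 (adjusted p = 0.53).

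Probe sets within a gene did not always move together. Over the array, 1.63% of probe sets were called higher and 0.106% lower. Of the 2110 probe sets of the members, 400 were higher (19.0%) and 0 lower. Within the 94 called members, 348 of 539 probe sets were called (64.6%) and 75 differed by less than 0.5 (13.9%). Of the 88 called members with at least 2 probe sets, 11 had every probe set called and 1 had none. In Tex29 the 9 probe sets ran from -0.28 to 5.44, and in Acsbg3 the 18 ran from -0.48 to 4.005. A mean over such probe sets is smaller than the change of the exons that rose.

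A further 38 members were not called although at least 1 of their probe sets was. The like count over all genes is not given here, so this is no trait particular to the members. The highest probe set of 1700080N15Rik rose by 2.70 beside a gene mean difference of 0.92. In Pifo (1700027A23Rik), a gene of the primary cilium, 1 probe set rose by 2.62 while the gene mean differed by 0.49. The same pattern was seen in 1700017G19Rik (2.43 and 0.43), 1700001O22Rik (2.40 and 0.64), Smim23 (1700008A04Rik, 2.37 and 0.67) and 1700022A22Rik (2.25 and 0.86). The count of 94 therefore leaves out members with a rise in only some of their probe sets. Close to the threshold, 1700072B07Rik (1.01), 1700109G15Rik (1.02) and 1700061F12Rik (1.03) were just inside it, and 1700012P22Rik (0.99), 1700016C15Rik (0.99) and 1700011B04Rik (0.98) just outside.

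**Figure D3:**
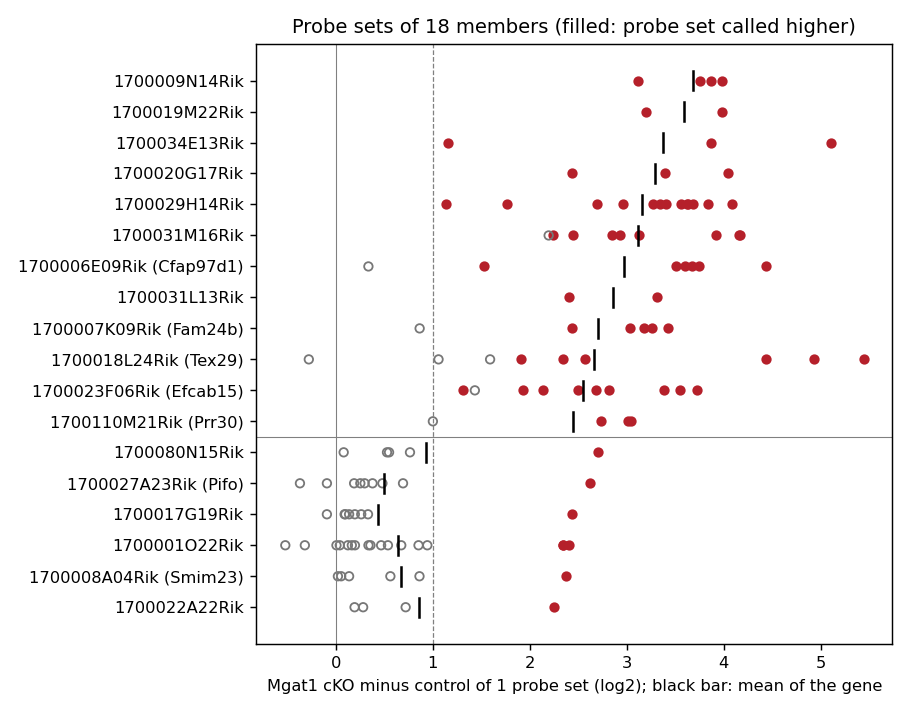
Difference between Mgat1 cKO and control means of 3 arrays (log2, horizontal) for each probe set of 18 members (vertical); red points are probe sets called higher, open points are not called and black bars are gene means. The upper 12 are the members with the largest rise, and the lower 6 are members not called as genes in which 1 or a few probe sets rose.

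The 1700 genes were next set beside other clones of the collection. Among the 410 genes that share the prefix of 4930483K19Rik, 69 were called higher (16.8%, median difference 0.12). Among the 191 genes of the 3 prefixes that follow it in number, of which 4933417A18Rik is a member, it was 24 (12.6%, median 0.11). Among 1041 RIKEN clone genes of all other prefixes it was 26 (2.5%, median -0.04). Of these 26, 15 belonged to the 44 genes of a further pair of testis prefixes, that of 4921511C20Rik and the one after it (34.1%, median 0.16), a split made after the values were seen. The other 997 clone genes had 11 calls (1.1%, median -0.05). Every group of testis clones thus had a larger share of calls than the 2.53% of all genes, and the remaining clones had a smaller one. The differences between groups were not tested.

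The word TGACATCA was present in 25 of the 96 promoter windows of called members (26.0%) and in 28 of the 280 windows of members that were not called (10%). Over all 32851 windows of the table it was present in 3.62%. The unchanged element TGACGTCA was found in 1.04%, 1.43% and 1.79% of the same windows, so it was no more frequent among the members. Of the 12 words that differ from TGACGTCA by 1 base, read on both strands, only TGACATCA and TGACCTCA were in more than 5% of the called windows. TGACCTCA was present in 8.33% of called windows, 5.0% of the others and 2.17% of all. Of the 28 matches in called windows, 22 lay within 100 bases before the start site (78.6%), beside 24 of 28 in windows of members not called (85.7%) and 53.3% of the matches in all windows. The position close to the start was thus shared by members that rose and members that did not.

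Counted by gene, 24 of the 52 members with TGACATCA in a window were called higher (46.2%, median difference 0.83), against 53 of the 281 members without it (18.9%, median 0.21). The same split was made over genes with other names, which played no part in the choice of the word. There 64 of 481 genes with the word were called higher (13.3%), against 265 of 15239 without it (1.74%). The medians of these genes were 0.03 and -0.06. Most genes that carried the word were not called in either set, and most called members did not carry it. The long non-coding RNA 1700020G17Rik and the coding genes Efcab15, Prr30, Pttg1ip2 and Llcfc1 rose by more than 5-fold with no TGACATCA in their windows. A match of 8 letters is a description of the sequence and no evidence of binding.

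**Figure D4:**
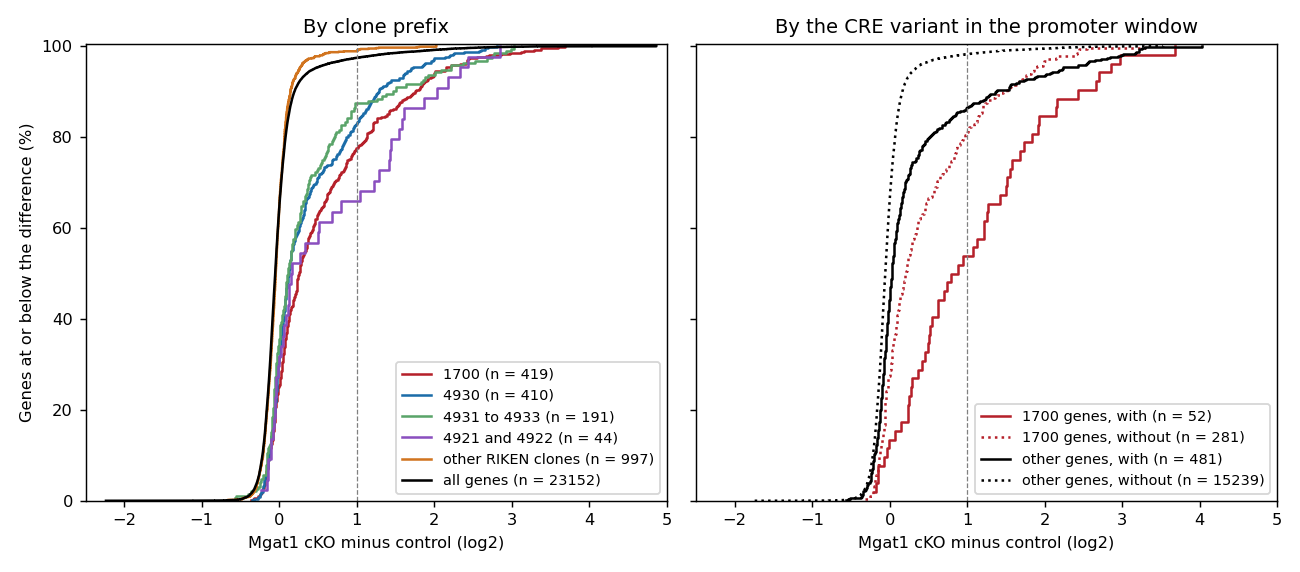
Share of genes (%, vertical) at or below each Mgat1 cKO minus control difference (log2, horizontal), by clone prefix on the left and by the presence of TGACATCA or TGATGTCA in a 300-base promoter window on the right. On the left side the curves of the testis prefixes lie to the right of those of other clones and of all genes, and on the right side members and other genes with the word lie to the right of those without it; the dashed line marks 2-fold.

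The X-box core GTTGCC, read on both strands, was present in 25.0% of called windows and 20.4% of windows of other members, beside 12.5% of all windows. It was thus more frequent among the members than over the table, and about as frequent in members that rose as in those that did not. The shorter element TGACGT (6.25%, 6.43% and 7.51% in the same order), the A-MYB core AACNGTT (4.17%, 4.29% and 4.45%) and TATAAA (10.4%, 10.4% and 13.6%) had like or lower shares in the members than over the table. A further A-MYB core, CAGTTG, was in 12.5% of called windows, 20.7% of the others and 13.7% of all. The promoter of Acsbg3 printed above holds a GTTGCC as well as the changed response element. Another 3 called members with this core within 100 bases before the start are shown here, with GTTGCC or its reverse complement GGCAAC in capitals.
1700057K13Rik (Tex35), chr1:157108681-157108780, minus strand: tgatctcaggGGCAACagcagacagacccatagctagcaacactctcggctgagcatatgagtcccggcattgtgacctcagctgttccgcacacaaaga
1700113H08Rik, chr10:87057946-87058045, plus strand: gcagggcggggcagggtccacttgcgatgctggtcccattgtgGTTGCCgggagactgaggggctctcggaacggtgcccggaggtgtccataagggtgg
1700061J05Rik (Tex33), chr15:78395913-78396012, minus strand: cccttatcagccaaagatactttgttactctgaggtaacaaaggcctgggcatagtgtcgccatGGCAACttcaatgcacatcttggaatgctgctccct

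These are Tex35, which rose by 2.01, the coding gene 1700113H08Rik, which rose by 1.80, and Tex33, which rose by 1.70. Their matches begin 90, 57 and 36 bases before the start. None of the printed stretches of these 3 genes holds TGACATCA.

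Most neighbouring genes did not rise with the members. The nearest measured gene in the GRCm38.p6 table was called higher for 7 of the 94 called members (7.45%) and for 9 of 324 members that were not called (2.78%), beside 2.53% of all genes. At any fold it was higher for 20 of the 94 (21.3%) and for 29 of the 324 (8.95%), beside 6.07% of all genes. The differences between these shares were not tested. The median difference of the neighbours of called members was -0.03, close to that of all genes. For 18 called members the nearest gene overlapped the member, and 0 of these neighbours were called at 2-fold while 5 were higher at any fold. Of the 7 pairs, Fam24b and Fam24a (2.70 and 1.90) and Acsbg3 and Acsbg2 (2.43 and 1.76) are pairs of related genes, whose probes may share sequence. Others were 1700034E13Rik with Zfp474 (3.38 and 1.88), Fam217a with 4933417A18Rik (1.95 and 2.01), 1700122O11Rik with 1700067P10Rik (1.58 and 2.15) and Fam166c with Cib4 (1.21 and 1.53).

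Some members start head to head with their neighbour. In 33 pairs of a member and its nearest gene, the promoter windows overlapped and the genes ran in opposite directions away from each other. In 4 of them the neighbour was called higher, and in each of the 4 the member rose by close to 2-fold. Over all 33 pairs, 2 members were called, 10 were higher at any fold and the median member difference was 0.12. In the pair of 1700018B08Rik (0.32) and 1700030M09Rik (0.57) both genes are members. Both were higher at any fold, and only a single member of that pair enters these counts. Of all members 22.4% were called and 43.2% were higher at any fold, with a median of 0.26. Members in such pairs thus rose less often than members in general, and no difference was tested. Tnp1, the transition protein that replaces histones in spermatids, rose from 4.87 to 7.72, and 1700027A15Rik, which starts 137 bases from it, read 4.68, 4.68 and 4.50 in control and 5.56, 5.63 and 5.49 in Mgat1 cKO arrays (difference 0.94, SE 0.08). Acrv1, an acrosomal protein, rose by 2.54, and 1700027I24Rik, 31 bases away, read 4.52, 4.55 and 4.30 against 5.54, 5.27 and 5.35 (difference 0.93, SE 0.10). Both non-coding members rose on every array, and to a smaller extent than the coding neighbour.

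Tbc1d21, a testis gene required for the sperm midpiece in mouse, rose by 3.38, and 1700072B07Rik, 49 bases away, read 4.27, 4.31 and 4.51 in control and 5.54, 4.93 and 5.66 in Mgat1 cKO arrays (difference 1.01, SE 0.18). Its call was lost in the methods' analysis of variance (adjusted p = 0.11). Tssk3, a testis-specific serine kinase, rose by 2.11 and Fam229a (1700125D06Rik) by 0.94. In the 29 pairs whose neighbour was not called, members differed by -0.21 to 1.71 with a median of 0.10. These neighbours included genes of general function such as Atr, Cct3 and Cct7, beside which the members 1700065D16Rik, Tsacc and Pradc1 differed by -0.17, 0.14 and -0.06. Spatc1l, at 1.71, was the member with the largest rise in a head-to-head pair, and its neighbour 4930483K19Rik differed by 0.86.

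The bases between both starts are printed for 3 of these pairs, since each is the whole stretch that separates a spermatid gene from its divergent 1700 transcript. They are given on the strand of the 1700 gene, with TGACATCA in capitals where present.
1700027A15Rik / Tnp1, chr1:73015899-73016035, plus strand: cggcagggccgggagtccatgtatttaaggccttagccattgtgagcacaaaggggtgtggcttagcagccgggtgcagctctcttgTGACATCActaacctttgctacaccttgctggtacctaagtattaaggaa
1700072B07Rik / Tbc1d21, chr9:58370455-58370503, plus strand: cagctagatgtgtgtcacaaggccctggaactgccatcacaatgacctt
1700027I24Rik / Acrv1, chr9:36693190-36693220, minus strand: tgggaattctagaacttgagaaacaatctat

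The stretch between 1700027A15Rik and Tnp1 holds TGACATCA, 50 bases before the start of the 1700 gene. The other stretches hold neither TGACATCA nor TGATGTCA.

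**Figure D5:**
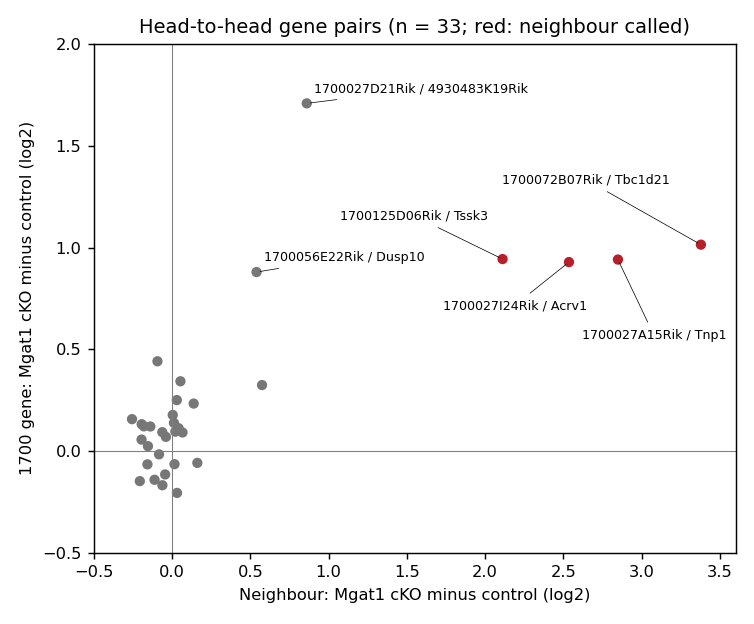
Mgat1 cKO minus control difference (log2) of the 1700 gene (vertical) against that of the divergent neighbour (horizontal) in 33 head-to-head pairs, each point a pair. The 4 pairs with a called neighbour (red) lie at 0.93 to 1.01 for the member, and most other pairs lie near 0 on both axes.

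Correlations between arrays over all genes were 0.994 to 0.996 within a genotype and 0.979 to 0.98 between genotypes. Mgat1 itself read 6.31 and 6.30, which does not check the genotypes because the probe sets in the deleted part are not known here. All 12 markers of round and elongating spermatids were higher in Mgat1 cKO cells. The mean of the list was 6.01 to 6.08 on the control arrays and 8.27 to 8.34 on the Mgat1 cKO arrays. The marker lists were chosen with earlier results of these data known. The paper already lists Tnp1, Tnp2, Prm2 and H1fnt as raised, so this rise is a description and no independent check. Of 8 spermatogonial and 10 spermatocyte markers, 0 passed at any fold. Their median differences were -0.144 and -0.143, beside -0.05 over all genes. Mgat1 cKO arrays lay below all control arrays in 1 of the 8 and 6 of the 10, beside 4652 of all 23152 genes. Of 8 epididymal markers, 5 were lower, and the mean of that list was 6.23 to 6.25 on control and 5.51 to 5.62 on Mgat1 cKO arrays. Of the somatic markers of the testis, 1 of 10 for Sertoli cells, 2 of 5 for Leydig cells, 1 of 5 for myoid cells and 3 of 7 for macrophages were lower, and none was higher. The 1700 genes rose together with the spermatid markers, and the part of the cell composition in the rise of the members was not tested.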

How the data were processed

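RNA of germ cells from 23 dpp males was measured on 6 arrays, 3 control and 3 Mgat1 cKO. The deposited log2 values were made by the authors with Affymetrix Expression Console, using RMA, which corrects for background, equalizes the distributions of the arrays and summarizes probes. Its version is not given in the sources used here. The table holds 269751 exon level probe sets, 233753 of them with 1 symbol, 5139 with several and 30859 with none. A gene value is the mean over its single-symbol probe sets. Precision is limited by the number of arrays and by the single RNA pool per genotype.

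Genes were tested with limma 3.58.1 under R 4.3.3, by lmFit and then eBayes with no trend, and p-values were adjusted over all genes by Benjamini-Hochberg. A call needed an adjusted p under 0.05 and more than 1 log2 unit of difference, the 2-fold threshold of the methods. The fit was tested on simulated data. Limma replaced the analysis of variance of the methods because 3 arrays a group leave few degrees of freedom. Tables and figures were made with Python 3.11.15, pandas 2.3.3 and matplotlib 3.10.9.

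The members and lists were chosen with earlier results of these data known. Of the members, 316 matched the RefSeq gene table by symbol and 103 by synonym. The table gave names, gene types and neighbours, and promoter windows came from RefSeq on GRCm38.p6. Named members were the 12 largest rises, the lower members, the 6 highest control values, the 4 smallest differences at a control value of 8 or more, up to 12 coding called members, 6 members with only a probe set called, 3 on each side of the threshold, and called members with a called neighbour. Coding members were to be chosen by protein length, and the gene type was used in its place. Genes grouped by current symbol, members in head-to-head pairs, the X-linked members, those that rose from above 7 and the members whose sequences are shown were named after their values were seen, as was the word TGACATCA.

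As alternatives, each array was left out in turn, the replicate number was fitted as a block, and arrays were centred or normalized again. Group medians, medians over probe sets, a trend in eBayes, the methods' analysis of variance, a 1.5-fold or no fold threshold and a filter on dim probe sets were also tried.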

Additional observations from a re-analysis of the deposited data

Results flagged for a closer look

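Probe sets that carry a 1700 symbol together with another symbol were left out of the gene values. There were 121 of them, and 28 were higher in Mgat1 cKO cells (23.1%, beside 1.63% of all probe sets) and 0 lower. Their median difference was 0.54 and the largest was 2.92. They came to notice because a signal appeared in data that no comparison used. Which of the genes that share such a probe set gave the signal was not tested.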

How the results depend on the processing

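The count of 94 members called higher was 91 with analysis of variance, 94 with an intensity trend, 95 with differences of medians, 95 with centred arrays, 94 with repeated quantile normalization and 99 with medians of probe sets. With the replicate block it was 93, and the replicate numbers did not pair the arrays (correlations of deviations -0.02, -0.06 and -0.02). It was 108 of 402 members with dim probe sets left out. That filter kept a probe set at 5 or more in either group mean. A probe set dim in control thus stayed in if it was high in Mgat1 cKO cells, which favours calls. The count of members called higher was 143 at a 1.5-fold threshold and 181 with no fold threshold. The count over all genes, rises and falls together, went from 594 at 2-fold to 962 and 1948 at these 2 settings. Rises alone were 586 genes at 2-fold and 1405 with no fold threshold. With no fold threshold 2 members were lower. Without 1 array the count was 93 to 96, the count over all genes 591 to 605 and the median member difference 0.24 to 0.29. In all 6 of those fits 88 of the 94 members were called, and 85 were called in every one of 15 fits at 2-fold. Calls of 1700072B07Rik (1.01), 1700109G15Rik (0.95 with differences of medians) and 1700061F12Rik (1.00) lay close enough to the threshold to be lost in some fits. Of the 2 lower members, 1700110I01Rik missed the threshold with medians of probe sets (-0.27, adjusted p = 0.16), with the replicate block (adjusted p = 0.050) and without control replicate 1 or 2. 1700016L04Rik missed it with the replicate block (0.096), with analysis of variance (0.063) and in 5 fits without 1 array, and with medians of probe sets its difference was 0.25 in the opposite direction. The cause was not tested. The spread between aliquots of 1 pool per genotype leaves out the variation between mice, and gene means dilute changes of single exons.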
